A study of Mus musculus with 15 samples.

Results

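The change in hypothalamic microRNAs between the juvenile and the pubertal mouse was measured here in 10 of the 15 small RNA libraries of the series, 5 from postnatal day 14 (PND14, week 2) and 5 from postnatal day 35 (PND35, week 5). The libraries of these ages were taken by their labels, without use of any measured value. Each is labelled as female C57BL/6JOlaHsd hypothalamus, and the labels name no treatment or genetic change at either age. The design text places PND14 before and PND35 during puberty. The other 5 libraries, from PND56, entered the statistical fit to estimate the spread and are not described.

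MicroRNAs (miRNAs) are short RNAs that guide Argonaute proteins to messenger RNAs and lower their translation or stability. Each is cut from a hairpin, and the arm at the 5′ end of the hairpin is called 5p and the other 3p. Bases 2 to 8, the seed, carry most of the pairing with a target, so that miRNAs with the same seed form a family with overlapping targets. The hypothalamus holds the neurons that release gonadotropin-releasing hormone (GnRH), whose output sets the onset of puberty. Over the same weeks of life the rodent brain is also myelinated by oligodendrocytes, and its neurons and vessels mature.

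The mature sequences of the miRNAs that the results turn on are given 5′ to 3′ with the seed in capitals, from RefSeq (GRCm38.p6). They show which changed miRNAs share a seed, which are complementary to each other, and which come from the 2 arms of 1 hairpin. The first group rose from PND14 to PND35 and holds the miR-219, miR-338 and miR-29 miRNAs, with the members of the miR-26 and miR-30 seed families.
miR-219a-5p: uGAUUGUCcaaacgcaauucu
miR-219b-3p: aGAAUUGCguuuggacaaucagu
miR-338-3p: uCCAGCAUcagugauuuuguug
miR-3065-5p: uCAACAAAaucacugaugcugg
miR-29a-3p: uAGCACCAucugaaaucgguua
miR-29b-3p: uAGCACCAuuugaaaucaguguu
miR-29c-3p: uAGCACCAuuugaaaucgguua
miR-26a-5p: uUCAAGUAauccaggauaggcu
miR-26b-5p: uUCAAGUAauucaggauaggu
miR-30a-5p: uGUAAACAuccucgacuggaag
miR-30c-5p: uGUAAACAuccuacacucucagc
miR-30e-5p: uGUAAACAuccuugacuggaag
miR-384-5p: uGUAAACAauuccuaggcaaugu
miR-212-3p: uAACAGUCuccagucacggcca

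The second group fell, or holds the arm that did not pass the test beside the one that fell. Its miRNAs come from the imprinted Dlk1-Dio3 region, from the miR-448 hairpin and from the X-linked miR-322 cluster, with miR-135a-1-3p and miR-130b-3p.
miR-323-5p: aGGUGGUCcguggcgcguucgc
miR-323-3p: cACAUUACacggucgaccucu
miR-409-5p: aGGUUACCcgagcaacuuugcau
miR-409-3p: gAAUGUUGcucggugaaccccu
miR-370-5p: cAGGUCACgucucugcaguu
miR-370-3p: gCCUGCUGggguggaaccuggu
miR-448-5p: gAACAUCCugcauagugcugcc
miR-448-3p: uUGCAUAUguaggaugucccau
miR-1188-5p: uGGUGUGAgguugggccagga
miR-431-5p: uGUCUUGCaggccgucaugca
miR-134-5p: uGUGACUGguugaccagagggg
miR-135a-1-3p: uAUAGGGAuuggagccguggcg
miR-130b-3p: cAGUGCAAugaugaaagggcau
miR-322-5p: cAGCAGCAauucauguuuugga
miR-503-5p: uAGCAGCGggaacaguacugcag
miR-351-5p: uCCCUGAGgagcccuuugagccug

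The third group holds the members of the miR-34 and miR-449 family, which share a seed and moved in opposite directions, and miR-195a-5p, which shares its seed with miR-322-5p and moved against it.
miR-34a-5p: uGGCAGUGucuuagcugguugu
miR-34b-5p: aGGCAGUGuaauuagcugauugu
miR-449a-5p: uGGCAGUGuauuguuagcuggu
miR-449c-5p: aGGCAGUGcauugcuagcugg
miR-195a-5p: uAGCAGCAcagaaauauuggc

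The labels name replicates 1 to 3 of each age by week and replicates 4 and 5 by a plain number. These are called the name series here, and each fit held them as a term. The first principal component of the 10 libraries (37.5% of the variance) separated the name series, mainly at PND14, and the second (35.6%) separated the ages. Total counts ran from 6722608 to 16153673 at PND14 and from 7709077 to 10246932 at PND35, with 1129 to 1275 miRNAs detected per library. Levels are given in CPM, counts scaled to 1e+06 per library with edgeR's TMM factors, and the detection floor, set at 3 counts, was 0.186 to 0.446 CPM. Counts summed by seed were scaled with TMM factors of their own, computed over the seed families. These seed sums are therefore not plain sums of the CPM of the members. Whether each library is a different animal is not stated in the labels. The p-values therefore reflect only the spread among these libraries, which may be technical. Neuronal miRNAs were abundant at both ages, with 51189 to 62010 CPM in all for the 22 of the list at PND14 and 62589 to 72878 CPM at PND35.

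Of 704 miRNAs tested, 212 (30.1%) differed between PND14 and PND35 at an adjusted p below 0.05 by edgeR's quasi-likelihood test, 98 (13.9%) higher and 114 (16.2%) lower at PND35. Among the 704 are 20 miRNAs whose counts equal those of another tested miRNA in every library, and each was counted on its own. A change of at least 2-fold was called for 31 miRNAs that rose and 40 that fell. In 116 miRNAs (16.5% of those tested) the 5 libraries of the ages did not overlap, and 115 of these were called. The 212 called miRNAs had the same direction in both name series in 210 cases, which a call over both series favours in itself. With each of the 15 libraries left out in turn, 145 of the 212 remained called every time, 69 higher and 76 lower. In replicates 1 to 3 alone and replicates 4 and 5 alone, 100 of the 212 were called in both, and 97 met both conditions. Without the name series term 135 were called, all among the 212, and in replicates 4 and 5 alone 356 were called, 168 of them among the 212. In bulk tissue, fewer cells of a type and less RNA per cell cannot be told apart.

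**Figure D1:**
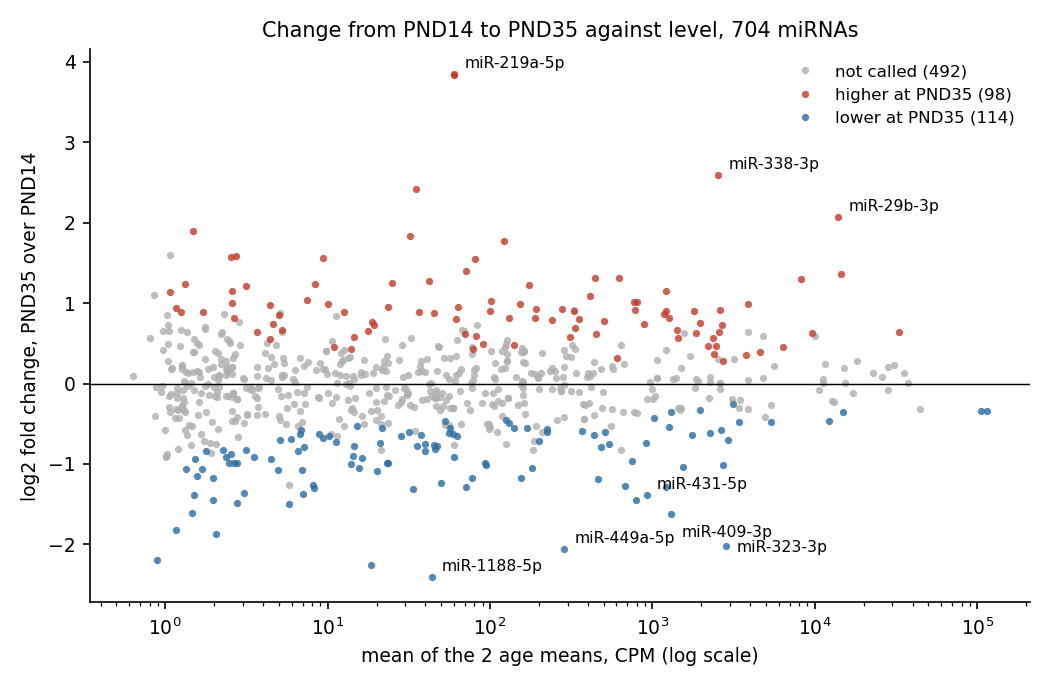
Log2 fold change from PND14 to PND35 (vertical axis, positive where PND35 is higher) against the mean of the age means in CPM (horizontal axis, log scale) for the 704 tested miRNAs, with called miRNAs in red (98 higher) and blue (114 lower) at an adjusted p below 0.05. Calls lie at all levels, and miR-338-3p, miR-29b-3p, miR-323-3p and miR-409-3p combine a high level with a change of at least 3.08-fold.

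The largest rises were those of miRNAs known from oligodendrocytes. miR-219a-5p, which drives precursors towards these myelin-forming cells, stood at 6.05, 15.3, 13.0, 3.49 and 3.63 CPM in PND14 replicates 1 to 5 and at 110, 197, 102, 85.5 and 66.5 CPM in PND35 replicates 1 to 5. The lowest PND35 library lay above the highest PND14 library, and the log2 fold change was 3.84 ± 0.33 (standard error, SE; n = 5 per age; adjusted p = 2.88e-07, edgeR). Both name series showed it, at 3.58 for replicates 1 to 3 and 4.41 for replicates 4 and 5.

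miR-338-3p, a further promoter of oligodendrocyte differentiation, stood at 455, 677, 888, 686 and 911 CPM at PND14 and at 4706, 5410, 4011, 4019 and 3690 CPM at PND35. These libraries did not overlap either, and the level rose 6.01-fold (log2 2.59 ± 0.19, adjusted p = 8.12e-08, edgeR). Its hairpin lies in an intron of the kinase gene Aatk on the gene's strand (chr11:120014765-120014862, minus strand, mm10). miR-3065-5p, from the hairpin on the other strand of the same site (chr11:120014767-120014853, plus strand), stood at 22.4 to 63.1 CPM at PND14 and 65.7 to 149 CPM at PND35, a rise of 2.63-fold (adjusted p = 1.49e-05). A run of 21 bases is complementary between miR-338-3p and miR-3065-5p, and miR-3065-5p held 2.84% of the counts of miR-338-3p over the 10 libraries.

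Of the 8 tested oligodendrocyte miRNAs, 6 rose and 1 fell, with a median log2 fold change of 1.83 against −0.03 over all 704. The share called was 87.5%, against 30.1% of all miRNAs. The 6 are not independent markers. miR-219b-3p is complementary to miR-219a-5p over 21 bases, its counts equalled those of miR-219a-5p in 7 of the 10 libraries and differed by at most 1 count in the others. Reads of these hairpins on opposite strands (chr2:29845631-29845727, minus, for miR-219a-2 and chr2:29845647-29845711, plus, for miR-219b) appear not to have been told apart, and both values may count the same reads.

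The other members of the list rose less. miR-219b-5p rose by 2.42 ± 0.25 on the log2 scale (adjusted p = 1.90e-06, edgeR), by 3.00 in replicates 1 to 3 and 1.70 in replicates 4 and 5, and this difference passed the test (adjusted p = 0.0135). miR-338-5p, the less abundant arm of its hairpin, rose from 5.13 to 11.6 CPM on average (adjusted p = 0.00576). miR-219a-2-3p, by far the most abundant miR-219 miRNA, showed a series difference. It stood at 960, 1021 and 1357 CPM in PND14 replicates 1 to 3, at 3374 and 4371 CPM in replicates 4 and 5, and at 2403 to 4346 CPM at PND35. The log2 changes of the series were 1.20 and 0.06 (adjusted p of the difference 0.0103). Unlike these, miR-219a-1-3p fell by 0.94 ± 0.27 on the log2 scale at 0.798 to 3.05 CPM (adjusted p = 0.0139).

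**Figure D2:**
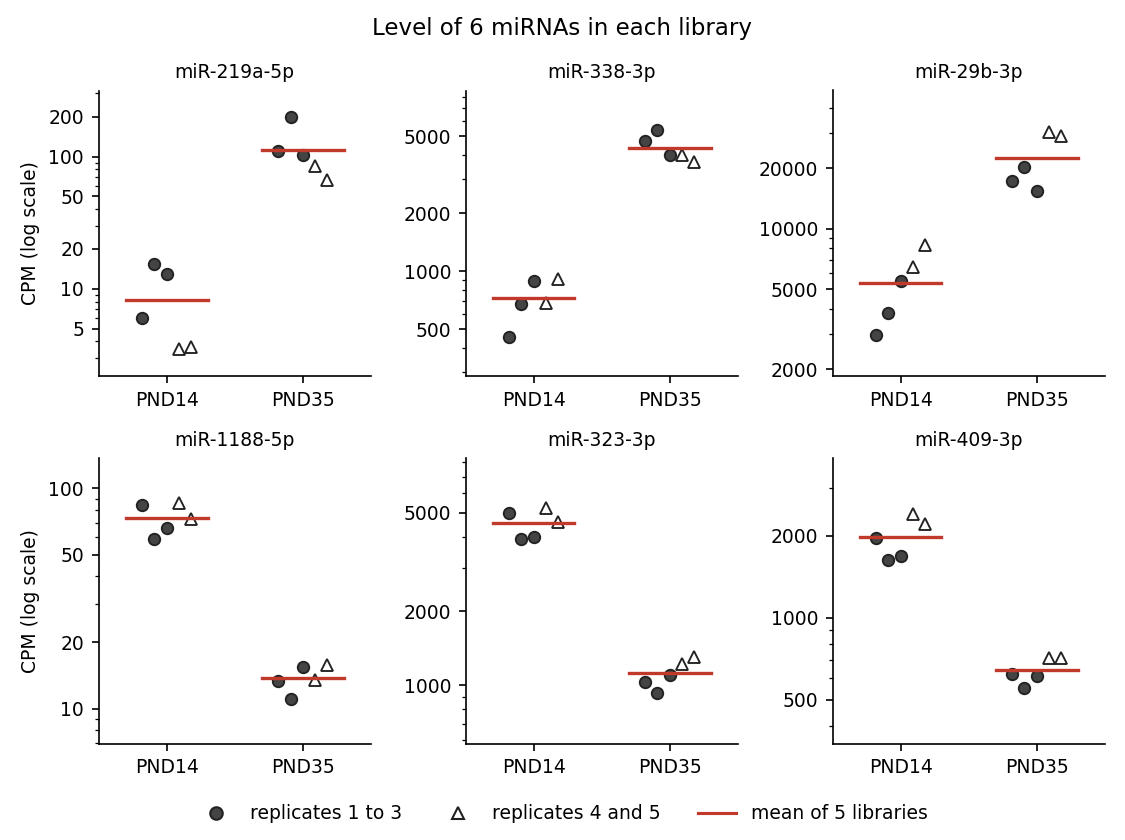
Level in CPM (vertical axis, log scale, its own range in each panel) of 6 miRNAs in each PND14 and PND35 library, with filled circles for replicates 1 to 3, open triangles for replicates 4 and 5 and a red line at the mean of 5 libraries. The ages do not overlap in any of the 6 panels; miR-219a-5p rose from a mean of 8.29 to 112 CPM and miR-323-3p fell from 4537 to 1119 CPM.

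All 7 tested miRNAs of the miR-29 hairpins rose, against 13.9% of all miRNAs, with a median log2 fold change of 1.78. The family is known for repressing collagen messenger RNAs and for rising as brain tissue matures. miR-29b-3p stood at 2957, 3829, 5512, 6425 and 8255 CPM at PND14 and at 17202, 20161, 15455, 30426 and 29004 CPM at PND35, with no overlap of the ages. It rose 4.19-fold (log2 2.07 ± 0.18, adjusted p = 3.01e-07, edgeR).

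On the scale of the seed sums, the 3 members with the seed AGCACCA, miR-29a-3p, miR-29b-3p and miR-29c-3p, reached 13292, 13673, 19400, 18834 and 22292 CPM at PND14. At PND35 the sum was 56853, 59943, 53365, 55006 and 53255 CPM, a rise of 3.20-fold (log2 1.68 ± 0.13, adjusted p over 504 seed families 9.02e-08). The PND35 libraries lay within a narrow range although single members differed between the name series. miR-29a-3p stood at 23840 to 25744 CPM in PND35 replicates 1 to 3 and at 15354 and 15485 CPM in replicates 4 and 5, while miR-29b-3p was higher in replicates 4 and 5. On the log2 scale miR-29a-3p changed by 1.82 in the former and by 0.72 in the latter (adjusted p of the difference 0.00373), and the rise passed the test in each series alone.

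The less abundant arms rose as well. miR-29c-5p rose by 1.78 ± 0.13 on the log2 scale, miR-29a-5p by 1.83 ± 0.31, miR-29b-1-5p by 1.89 ± 0.24 and miR-29b-2-5p by 1.27 ± 0.17, with adjusted p-values from 8.94e-08 to 0.000354 (edgeR). The miR-29a and miR-29b-1 hairpins lie next to each other on the minus strand of chromosome 6 (chr6:31062660-31062747 and chr6:31063023-31063093, mm10). Those of miR-29b-2 and miR-29c lie on chromosome 1 in exons of the noncoding RNA A330023F24Rik (chr1:195037040-195037120 and chr1:195037547-195037634, plus strand). All 4 hairpins gave at least 1 miRNA that rose.

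Neuronal miRNAs moved in both directions, with 7 of 21 tested higher, 2 lower and a median of 0.47, a share called of 42.9% against 30.1% of all miRNAs. miR-212-3p, which is induced by neuronal activity, stood at 80.4, 93.6, 80.6, 131 and 148 CPM at PND14 and at 252, 246, 195, 243 and 267 CPM at PND35. The ages did not overlap, and the rise was 2.33-fold (log2 1.22 ± 0.15, adjusted p = 1.95e-05, edgeR).

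miR-132-3p, from the same transcript as miR-212, rose by 0.99 ± 0.31 (adjusted p = 0.0229), but its ages overlapped and its call was lost in 5 of 29 alternative analyses. miR-153-3p rose 1.87-fold (adjusted p = 0.00567) and miR-218-1-3p, at 0.596 to 1.78 CPM at PND14, 3.00-fold (adjusted p = 0.000124). In replicates 1 to 3 alone miR-153-3p did not pass (adjusted p = 0.143, edgeR). The 2 that fell were miR-137-5p, by 0.64 ± 0.15 on the log2 scale (adjusted p = 0.00464), and miR-129-5p, by 0.54 ± 0.15 (adjusted p = 0.0117). miR-124-3p, the best known neuronal miRNA, had a log2 fold change of 0.59 ± 0.31 and did not pass (adjusted p = 0.176).

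Among 15 miRNAs linked in earlier work to GnRH neurons or puberty, 3 rose and 1 fell, with a median log2 fold change of −0.09. The share called, 26.7%, was below the 30.1% of all miRNAs. Those that rose were miR-212-3p, miR-132-3p and miR-664-3p. miR-664-3p stood at 9.70 to 18.9 CPM at PND14 and 25.4 to 43.5 CPM at PND35, a rise of 2.39-fold without overlap (adjusted p = 0.0027, edgeR). Its hairpin overlaps the small nucleolar RNA gene Snora36b in an intron of Rab3gap2 (chr1:185242975-185243043, plus strand, mm10), so that reads of the 2 RNAs may not be told apart.

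The abundant miR-9-5p was the one that fell. It stood at 123188 to 140874 CPM at PND14 and 96415 to 107012 CPM at PND35, without overlap, and fell by 0.34 ± 0.08 in log2 terms (adjusted p = 0.00464, edgeR). The 5 tested miRNAs of the miR-200 family, known in GnRH neurons, and miR-155-5p did not pass the test. miR-7b-5p, an miRNA of the hypothalamus and pituitary among the 5 most abundant here, stood at 32567 to 40278 CPM in PND14 replicates 1 to 3, at 69713 and 66145 CPM in replicates 4 and 5, and at 33132 to 46217 CPM at PND35. It did not pass the test over both series (adjusted p = 0.207).

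Several of the largest decreases came from the Dlk1-Dio3 region on chromosome 12, an imprinted cluster of miRNAs expressed from the maternal chromosome and enriched in brain. Of its 90 tested miRNAs, 27 fell and 5 rose, a share called of 35.6% against 30.1% of all miRNAs, with a median of −0.20. With the replicate block 24 fell and 3 rose. The summed level of the cluster was 104543 to 128814 CPM at PND14 and 92898 to 97772 CPM at PND35. For 18 of the 90 (20%) the change differed between the name series, near the 19.2% of all miRNAs.

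miR-323-3p had the smallest p-value of all 704 miRNAs. It stood at 4994, 3917, 3978, 5212 and 4584 CPM at PND14 and at 1038, 930, 1100, 1222 and 1307 CPM at PND35, a fall of 2.02 ± 0.12 on the log2 scale (adjusted p = 6.33e-09, edgeR). The ages were far apart in both series, with log2 changes of −2.07 and −1.95. Its hairpin lies between genes (chr12:109712508-109712593, plus strand, mm10).

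miR-1188-5p, from an intron of the noncoding RNA Rian (chr12:109611822-109611941, plus strand), had the largest fall of the 704 miRNAs. It stood at 83.7, 59.0, 66.3, 86.0 and 72.3 CPM at PND14 and at 13.3, 11.1, 15.4, 13.4 and 15.9 CPM at PND35. That is a 5.31-fold lower level at PND35 (log2 −2.41 ± 0.18, adjusted p = 8.94e-08), with nearly the same value in both series (−2.39 and −2.43).

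miR-409-3p, from an intron of the noncoding RNA Mirg (chr12:109743158-109743236, plus strand), stood at 1960, 1626, 1682, 2414 and 2202 CPM at PND14 and at 624, 551, 608, 711 and 709 CPM at PND35. It was 3.08-fold lower (adjusted p = 8.37e-08, edgeR). miR-370-3p, also from an intron of Rian (chr12:109618258-109618336, plus strand), was 2.72-fold lower (adjusted p = 2.06e-05), and miR-431-5p 2.62-fold lower (adjusted p = 1.90e-06). The miR-431 hairpin lies opposite an exon of Rtl1, a gene of the paternal chromosome (chr12:109590447-109590537, plus strand). None of these overlapped between the ages.

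Further members that fell without overlap included miR-134-5p, known for restraining dendritic spine growth in neurons, at 1829 to 2330 CPM at PND14 and 961 to 1072 CPM at PND35 (adjusted p = 1.90e-06, edgeR). miR-487b-3p was 2.02-fold lower (adjusted p = 0.0027) and miR-412-5p 1.69-fold lower (adjusted p = 0.000149). miR-770-3p, from the first hairpin of the cluster, fell by 1.29 ± 0.25 on the log2 scale, by 0.82 in replicates 1 to 3 and 1.87 in replicates 4 and 5 (adjusted p of the difference 0.0483).

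The cluster was not uniform. miR-376b-5p rose 2.22-fold, from 588, 757, 955, 620 and 742 CPM at PND14 to 1311, 1543, 1276, 2190 and 2072 CPM at PND35 (adjusted p = 0.00035, edgeR). The ages did not overlap, and its hairpin (chr12:109723458-109723539, plus strand) lies between those of miR-323 and miR-409. miR-381-3p rose by 0.28 ± 0.09 on the log2 scale (adjusted p = 0.0293), a call that was lost in 15 of 29 alternatives, among them the replicate block (adjusted p = 0.0515).

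The hairpins of the cluster lie in blocks on both sides of a wide gap. Before the gap, within 54.6 kb of the first hairpin, 8 of 28 tested miRNAs fell and 1 rose. After it, from 145 to 184 kb, 18 of 58 fell and 4 rose. Of all 704 tested miRNAs 16.2% fell and 13.9% rose. The medians of the blocks were −0.12 and −0.22, and the members that fell most stood in both.

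**Figure D3:**
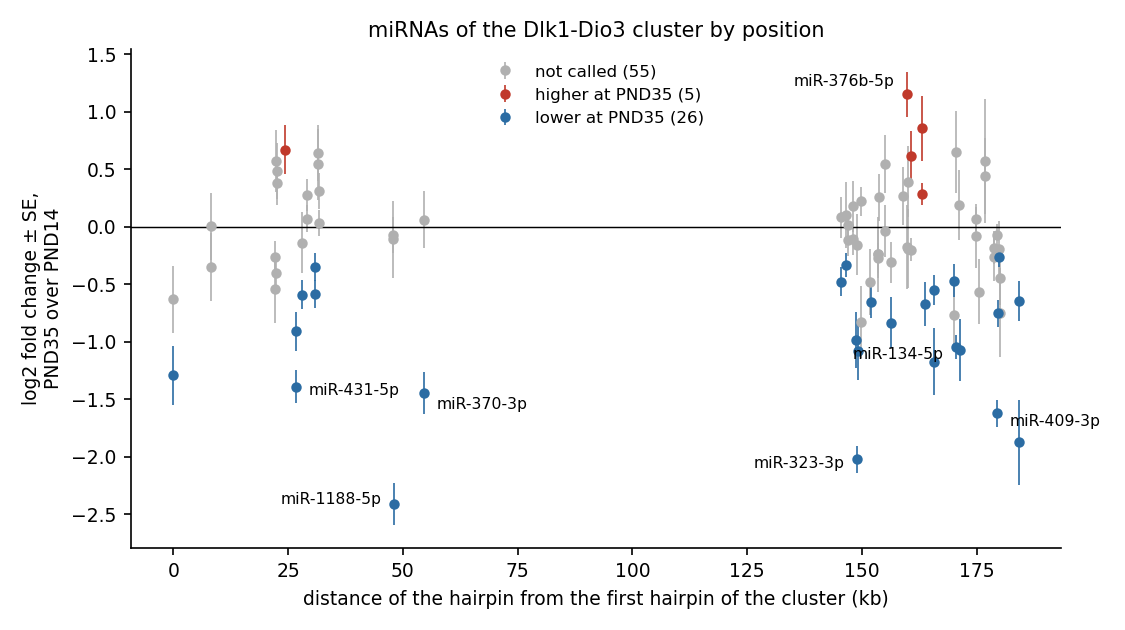
Log2 fold change from PND14 to PND35 with its SE (vertical axis) for 86 tested miRNAs of the Dlk1-Dio3 cluster against the distance of their hairpin from the first hairpin in kb (horizontal axis). Blue points, lower at PND35, occur in both blocks beside grey points that were not called, and 4 of the 5 red points, higher at PND35, lie in the second block.

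The 2 arms of a hairpin come from 1 precursor, so their ratio asks whether they changed alike. Of 225 hairpins with both arms tested, 39 (17.3%) had a changed log2 ratio of 5p to 3p (limma, 0.5 CPM added to each arm), 25 (11.1%) higher and 14 lower at PND35. In 22 hairpins (9.78% of those tested) the ages did not overlap. No called hairpin had arms called in opposite directions; in 29 of the 39, 1 arm alone was called. The count was 25 without PND14 replicate 4. In the Dlk1-Dio3 cluster 10 of 40 tested hairpins (25%) were called, and 9 of these 10 had a higher ratio, against 25 of the 39 over all.

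In miR-409 the ratio crossed 0, so that the more abundant arm changed from 3p to 5p. The log2 ratio was −0.85, −0.53, −0.74, −1.33 and −1.30 in PND14 replicates 1 to 5 and 0.66, 0.97, 0.76, 0.28 and 0.31 at PND35, a difference of 1.54 ± 0.14 (adjusted p = 1.92e-06, limma). The 3p arm fell by 1.62, while miR-409-5p stood at 894 to 1126 CPM at PND14 and 864 to 1080 CPM at PND35, with a log2 change of −0.07 ± 0.09.

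In miR-323 the ratio rose by 1.91 ± 0.24 (adjusted p = 4.81e-05, limma), from −7.26 to −5.48 at PND14 to −4.60 to −4.37 at PND35. Its 5p arm, at 25.4 to 102 CPM, did not pass the test (log2 change −0.16 ± 0.26). In miR-370 the ratio rose by 1.53 ± 0.23 (adjusted p = 0.000354), and its 5p arm, at 3.43 to 8.11 CPM, had a log2 change of 0.06 ± 0.25. In both hairpins the ages did not overlap in the ratio, and the abundant 3p arm was the one that fell.

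miR-448, from an intron of the serotonin receptor gene Htr2c on the X chromosome (chrX:147158210-147158321, plus strand), showed the same form outside the cluster. Its log2 ratio was −1.88, −1.92, −1.67, −1.81 and −1.46 at PND14 and −0.55, −0.31, −0.68, −0.41 and −0.36 at PND35 (difference 1.28 ± 0.16, adjusted p = 4.81e-05, limma). miR-448-3p stood at 98.9 to 148 CPM and then at 54.2 to 68.5 CPM, a log2 change of −0.99 ± 0.12, and miR-448-5p did not pass (0.30 ± 0.16).

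In miR-485 the ratio rose by 1.48 ± 0.19 (adjusted p = 4.81e-05, limma), but the arms differed between the name series and the ages just overlapped, with 4.41 in PND14 replicate 5 and 4.32 in PND35 replicate 2. miR-702 went the other way, with a ratio lower by 1.70 ± 0.26 (adjusted p = 0.000354). Its 5p arm was low, at 1.14 to 1.76 CPM at PND14 and 0.0997 to 0.5 CPM at PND35. PND35 replicates 4 and 5, at 0.131 and 0.0997 CPM, lay below 3 counts. The size of the change in ratio therefore depends on the 0.5 CPM added: with 2 CPM the difference was −0.97. All 6 ratios kept their call in each alternative that was run.

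The ratio also fell in hairpins whose rarer arm moved less than the abundant one. In miR-338 it fell by 1.46 ± 0.29 (adjusted p = 0.00175, limma), since miR-338-3p rose more than miR-338-5p. In miR-134 it fell by 1.46 ± 0.25 (adjusted p = 0.000648), with miR-134-5p lower and miR-134-3p at 0.255 to 1.83 CPM not called.

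**Figure D4:**
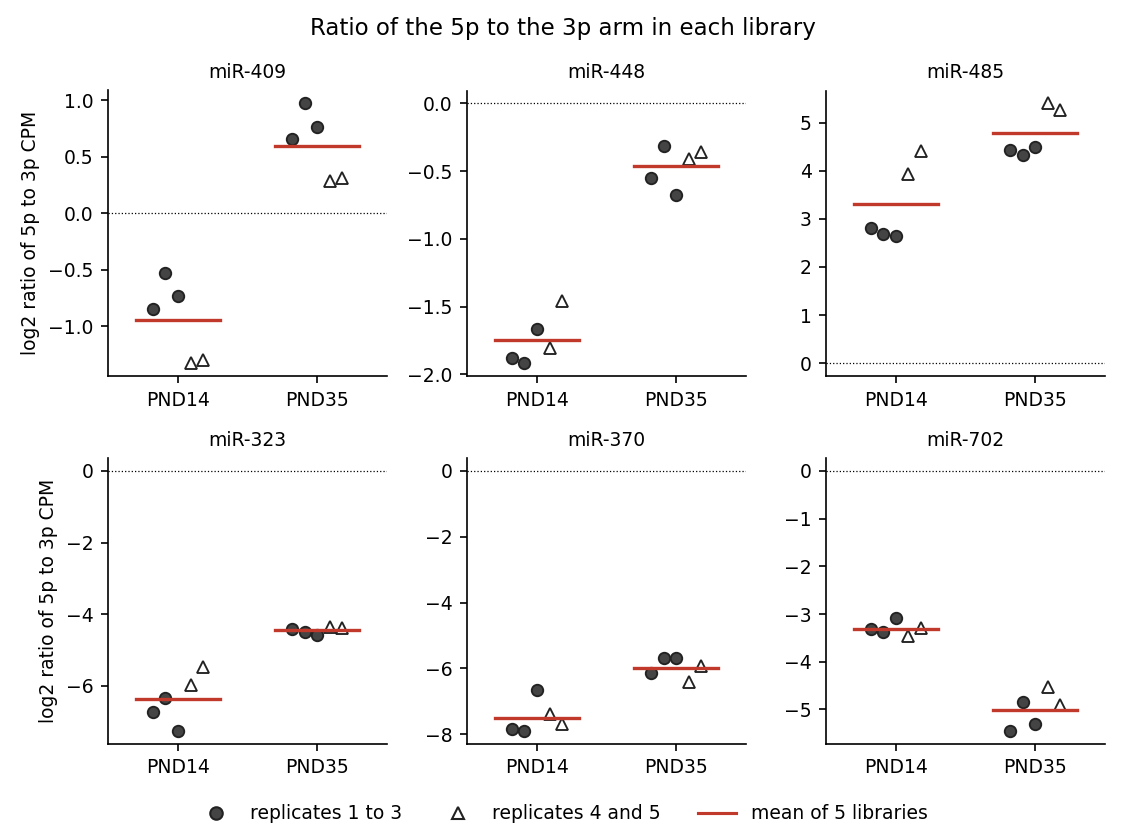
Log2 ratio of arms, 5p over 3p in CPM (vertical axis, its own range in each panel, dotted line at 0) in each PND14 and PND35 library for the 6 hairpins with the smallest p-values, with filled circles for replicates 1 to 3, open triangles for replicates 4 and 5 and a red line at the mean of 5 libraries. The ratio of miR-409 moves from below 0 in all 5 PND14 libraries to above 0 in all 5 PND35 libraries, and that of miR-702 falls.

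No tested miRNA of the lists for dividing and progenitor cells rose. Of 20 tested miRNAs of the miR-17-92 cluster and its paralogs, which promote proliferation, 8 fell and none rose, with a median of −0.61. Of all 704 tested miRNAs 16.2% fell. With the replicate block 5 of the 20 fell. Of 8 miRNAs of neural stem and progenitor cells, 4 fell, 3 with the block, and none rose, with a median of −0.37, and the change differed between the name series for 6 of the 8.

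miR-130b-3p stood at 95, 84.4, 93.0, 42.8 and 39.2 CPM at PND14 and at 29.5, 31.8, 30.1, 27.2 and 25.4 CPM at PND35, with no overlap. It fell by 1.24 ± 0.19 on the log2 scale (adjusted p = 0.000146, edgeR), by 1.58 in replicates 1 to 3 and 0.64 in replicates 4 and 5. miR-130a-3p, with the same seed, fell by 0.96 ± 0.18 (adjusted p = 0.00107), but did not pass in replicates 4 and 5 alone (−0.30, adjusted p = 0.0652). Its series differed at PND14, where it stood at 1327 to 1507 CPM in replicates 1 to 3 and at 455 and 420 CPM in replicates 4 and 5. miR-301b-3p, of the same list, fell by 0.65 ± 0.21 (adjusted p = 0.0269, and 0.0521 with the replicate block), with log2 changes of −1.13 and 0.14 in the series.

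miR-17-3p was 1.99-fold lower (adjusted p = 0.0052, edgeR) and miR-92a-1-5p 1.89-fold lower (adjusted p = 0.0195), both from the cluster on chromosome 14. miR-20a-5p, the most abundant member of that cluster to fall (adjusted p = 0.027, and 0.0533 with the replicate block), did so by 1.23 in replicates 1 to 3 and had a log2 change of 0.08 in replicates 4 and 5. In the small X-linked copy of the cluster (first hairpin start 52741697, minus strand, mm10), all 3 tested miRNAs fell: miR-18b-5p by 1.82 ± 0.36, miR-363-3p by 0.87 ± 0.32 and miR-20b-5p by 0.58 ± 0.19. These 3 were at 0.124 to 9.71 CPM, and the calls of miR-363-3p and miR-20b-5p were lost in 18 and 8 of 28 alternatives. With the replicate block the adjusted p of miR-363-3p was 0.0593.

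A further X-linked cluster fell in the same way, noted after its values were seen. Of 12 tested miRNAs of the miR-322, miR-503, miR-351, miR-542 and miR-450 hairpins (hairpin starts 53048008 to 53054306 on chromosome X, minus strand, mm10), 8 fell and none rose, with a median of −0.68. Of all 704 tested miRNAs 16.2% fell. The cluster was 1 of 13 groups of at least 3 hairpins spaced by at most 10 kb.

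miR-351-5p stood at 323, 223, 220, 252 and 199 CPM at PND14 and at 127, 99.5, 137, 117 and 104 CPM at PND35, 2.07-fold lower with no overlap (adjusted p = 0.000744, edgeR). miR-322-5p and miR-503-5p, both known to repress messenger RNAs of cell cycle proteins, were 1.67-fold and 2.26-fold lower (adjusted p = 0.00245 and 0.00499). Their ages overlapped, since replicates 4 and 5 at PND14 stood near the PND35 libraries, at 765 and 702 CPM for miR-322-5p against 522 to 836 CPM. miR-542-3p fell by 0.62 ± 0.15 on the log2 scale (adjusted p = 0.00617).

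Summed by seed, 164 of 504 families (32.5%) changed, 78 higher and 86 lower. Of the 56 families with at least 2 tested members, 19 (33.9%) changed, 11 higher and 8 lower. The miR-26 family (seed UCAAGUA) was among the 8 of these with the smallest p-values. miR-26a-5p and miR-26b-5p are encoded within genes of the Ctdsp phosphatases. On the scale of the seed sums they reached 19869, 20261, 20588, 33366 and 38487 CPM at PND14 and 37999, 38548, 34343, 50523 and 47639 CPM at PND35. The rise was 1.62-fold (adjusted p = 3.86e-05, edgeR). The ages overlapped in this sum, where PND14 replicate 5 exceeded 2 of the PND35 libraries of the other name series. For miR-26a-5p on its own scale, PND14 replicate 4, at 33222 CPM, also exceeded PND35 replicate 3, at 32918 CPM.

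The 4 miRNAs matched to a RefSeq sequence with the seed GUAAACA rose: miR-30e-5p by 0.91 ± 0.19, miR-30c-5p by 0.90 ± 0.19, miR-30a-5p by 0.64 ± 0.18 and miR-384-5p by 0.36 ± 0.11 on the log2 scale. Their seed sum, on its own scale, rose 1.62-fold, from 7266 to 9784 CPM to 12104 to 14092 CPM without overlap (adjusted p = 0.000992, edgeR). The call of miR-384-5p was lost in 10 of 29 alternatives. Over the whole miR-30 family 5 of 12 tested miRNAs rose, 3 with the replicate block, and none fell. Of all 704 tested miRNAs 13.9% rose. miR-30b-5p and miR-30d-5p, not matched to a sequence and not in the sum, had log2 changes of 0.47 (adjusted p = 0.216) and 0.39 (adjusted p = 0.0376, and 0.0593 with the block).

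The seed UCCCUUU was carried by miR-204-5p, known from the choroid plexus, with miR-211-5p at 2.47 to 5.22 CPM. miR-204-5p lies in an intron of Trpm3 (chr19:22750605-22750672, plus strand, mm10) and stood at 647, 775, 829, 921 and 1009 CPM at PND14 and at 1232, 1467, 1220, 1796 and 1931 CPM at PND35. It rose 1.82-fold without overlap (adjusted p = 3.46e-05, edgeR).

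miR-330-5p (seed CUCUGGG) rose 2.02-fold (adjusted p = 3.62e-06, edgeR), whereas miR-326-3p, with the same seed, had a log2 change of 0.08 ± 0.14. In the seed UGGAUAU the rise was that of miR-376b-5p. The seed sum of GGCUGGA, of miR-3473b and miR-3473e, fell by 1.40 ± 0.21 from 9.31 to 14.9 CPM to 2.98 to 6.17 CPM. The seed CUGGCUG fell by 0.75 ± 0.13 through miR-3085-3p, which fell by 1.26 ± 0.20.

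In 2 families members were called in both directions. miR-34a-5p and miR-34b-5p rose while miR-449a-5p and miR-449c-5p, with the same seed GGCAGUG, fell. The family is known from multiciliated cells, and miR-34a also from the p53 response.

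miR-34a-5p stood at 295, 355, 483, 308 and 347 CPM at PND14 and at 855, 1028, 865, 879 and 803 CPM at PND35, a rise of 2.48-fold without overlap (adjusted p = 3.62e-06, edgeR). miR-449a-5p stood at 618, 634, 615, 249 and 212 CPM at PND14 and at 81.3, 88.0, 123, 113 and 113 CPM at PND35, also without overlap, and was 4.18-fold lower (adjusted p = 3.43e-05). The fall was larger in replicates 1 to 3 (−2.68) than in replicates 4 and 5 (−1.03; adjusted p of the difference 0.00631). miR-449c-5p, whose hairpin, like that of miR-449a, lies in an intron of Cdc20b on chromosome 13, was 1.99-fold lower at 1.30 to 4.58 CPM (adjusted p = 0.00681). The sum of these 4, without miR-34c-5p, which was not matched to a sequence, rose by 0.44 ± 0.16 (adjusted p = 0.046, and 0.0726 with the replicate block), and this call was lost in 19 of 24 alternatives.

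miR-34b-5p rose 1.77-fold (adjusted p = 0.0147, edgeR) and miR-34c-5p, from the same transcript, 1.48-fold (adjusted p = 0.0178), so that miRNAs known from cilia moved both ways. Of 9 tested miRNAs of choroid plexus and cilia, 4 rose and 2 fell (66.7% called, against 30.1% of all miRNAs).

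The other such family has the seed AGCAGCA of miR-15 and miR-16, which repress cell cycle messenger RNAs. miR-195a-5p rose 1.49-fold, from 202, 216, 204, 301 and 329 CPM to 314, 317, 310, 473 and 443 CPM (adjusted p = 0.000892, edgeR), and miR-195b rose 2.21-fold at 0.288 to 2.11 CPM (adjusted p = 0.0142). miR-322-5p fell, as given with its cluster. The most abundant member, miR-16-5p, had a log2 change of 0.20 ± 0.11 and the family's sum one of 0.19 ± 0.11 (adjusted p = 0.203), neither of which passed.

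Of 9 tested miRNAs of the miR-23, miR-27, miR-24 and miR-3074 hairpins, noted after their values were seen, 7 rose and none fell, against 13.9% of all miRNAs that rose. miR-27a-5p (log2 −0.31) and miR-23b-5p (−0.23) did not pass. miR-23a-3p stood at 494, 526, 520, 557 and 554 CPM at PND14 and at 1017, 1170, 987, 1133 and 1052 CPM at PND35, a rise of 2.02-fold with little spread between libraries (adjusted p = 1.24e-06, edgeR). miR-23b-3p rose 1.88-fold (adjusted p = 5.81e-06), miR-24-3p 1.69-fold (adjusted p = 0.000144), miR-27a-3p 1.75-fold (adjusted p = 0.00468) and miR-27b-3p 1.49-fold (adjusted p = 0.0027). In replicates 1 to 3 alone miR-27a-3p did not pass (adjusted p = 0.103, edgeR). miR-3074-5p, from the hairpin region of miR-24 and counted among the 9, rose 2.47-fold (adjusted p = 2.06e-05). Its reads and those of miR-24 may not be told apart, so that its rise may not be independent.

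Among the let-7 and miR-98 miRNAs, which accumulate as cells differentiate, 3 of 22 rose and 1 fell, 18.2% called against 30.1% of all miRNAs. let-7g-5p rose 1.54-fold (adjusted p = 0.00468, edgeR), let-7g-3p 1.99-fold (adjusted p = 0.0108) and let-7d-5p 1.37-fold (adjusted p = 0.00217), and let-7c-1-3p was 1.47-fold lower (adjusted p = 0.012). The ages of let-7g-3p overlapped, and its log2 changes were 0.55 in replicates 1 to 3 and 1.90 in replicates 4 and 5. This difference passed the test (adjusted p = 0.034, edgeR). In replicates 1 to 3 alone neither let-7g-5p nor let-7g-3p passed (adjusted p = 0.0992 and 0.114, edgeR). The summed level of the list ran from 101112 to 219532 CPM at PND14 and from 126963 to 196392 CPM at PND35. Most of the family did not pass the test.

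Among the named falls with less support, miR-1224-5p and miR-504-5p fell by 1.31 ± 0.44 and 1.30 ± 0.41 on the log2 scale (adjusted p = 0.0323 and 0.0249, edgeR). With the replicate block the adjusted p-values were 0.0567 and 0.0501. In both the fall was 2.43 and 2.48 in replicates 4 and 5 and 0.34 and 0.33 in replicates 1 to 3. miR-135a-1-3p, in contrast, was 4.79-fold lower, from 23.9 to 40.8 CPM to 5.5 to 7.99 CPM without overlap (adjusted p = 1.34e-07), and miR-3093-3p 2.60-fold lower (adjusted p = 0.00012).

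Among the named rises, miR-344d-3-5p rose 2.94-fold at 1.02 to 18.2 CPM (adjusted p = 0.00402), with overlap of the ages. The abundant miR-125b-5p fell by 0.34 ± 0.11 (adjusted p = 0.0283, and 0.0629 with the replicate block), a call that was lost in 16 of 29 alternatives. Of the other 4 most abundant miRNAs, miR-9-5p and miR-7b-5p are given above, and let-7c-5p and miR-9b-3p did not pass, at means of 37551 and 33647 CPM at PND14 and 36956 and 36850 CPM at PND35. miR-9b-3p is complementary to miR-9-5p over 21 bases and held 30.2% of its counts, so that strands may not be told apart there either.

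Markers of other cells that a hypothalamus sample can hold were counted in the same way. Muscle miRNAs rose in 4 of 6 cases (66.7%, against 13.9% of all miRNAs). The summed level of the 8 miRNAs of this list, tested or not, was 365 to 607 CPM at PND14 and 670 to 945 CPM at PND35. miR-1b-5p rose 2.93-fold (adjusted p = 4.53e-06, edgeR), miR-133b-3p 2.05-fold (adjusted p = 0.00217), miR-499-5p 1.93-fold (adjusted p = 0.00464) and miR-1a-3p 1.54-fold (adjusted p = 0.00225). miR-1b-5p held 17.3% of the counts of miR-1a-3p. Neither was matched to a sequence, so whether they share reads was not tested, and they may not be independent markers. Of 9 vessel miRNAs 33.3% were called, near the 30.1% of all miRNAs. The 3 that rose came from the smooth muscle pair miR-143 and miR-145a, of which miR-145a-5p rose from 149 to 324 CPM to 347 to 522 CPM (adjusted p = 0.00053). miR-126a-3p and miR-126a-5p, of endothelial cells, did not pass the test. The vessel sum was 15690 to 25714 CPM at PND14 and 17067 to 29326 CPM at PND35.

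Of 8 microglia and leukocyte miRNAs (12.5% called), 1 rose, miR-142b at 0.470 to 2.87 CPM (adjusted p = 0.0458, and 0.0752 with the replicate block), while miR-146a-5p (−0.35) and miR-150-5p (0.34) did not pass. The summed level of the 10 miRNAs of this list, tested or not, was 2781 to 3760 CPM at PND14 and 3326 to 3772 CPM at PND35. Of 7 erythroid miRNAs (14.3% called), 1 rose, miR-451a, by 0.81 ± 0.26 on the log2 scale (adjusted p = 0.027, and 0.058 with the block), while miR-144-3p did not pass (0.67). The erythroid sum was 508 to 1094 CPM at PND14 and 636 to 881 CPM at PND35. Of 4 pituitary and sensory miRNAs, 2 fell, miR-183-5p by 0.77 ± 0.25 and miR-182-5p by 0.55 ± 0.19 (adjusted p = 0.0276 and 0.0393, with the block 0.0446 and 0.0661), and miR-375-3p did not pass (−0.24 ± 0.24). Of these 4, 50% were called, against 30.1% of all miRNAs. The summed level of the 7 miRNAs of this list, tested or not, was 184 to 344 CPM at PND14 and 146 to 228 CPM at PND35. The part of these cells in the other changes was not tested.

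For 135 of the 704 miRNAs (19.2%) the change from PND14 to PND35 differed between replicates 1 to 3 and replicates 4 and 5 (edgeR, adjusted p below 0.05), 25 of them among the 212 called and 110 among the others. In 101 of the 135 the change had opposite signs in the name series, which choosing by this difference favours in itself. The count depended on single libraries, with 87, 85, 59 and 25 without PND14 replicate 2, 3, 4 or 5, and 57, 62, 21 and 53 without PND35 replicate 1, 3, 4 or 5.

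The 5 smallest p-values of this difference belonged to miR-29a-3p and to miRNAs whose level at PND14 was higher in replicates 1 to 3. miR-1251-5p stood at 259, 341 and 316 CPM in these libraries, at 127 and 128 CPM in PND14 replicates 4 and 5, and at 102 to 173 CPM at PND35. The log2 changes of the series were −1.33 and 0.40 (adjusted p of the difference 0.00631). miR-301a-3p stood at 1345, 1566 and 1798 CPM and at 518 and 525 CPM at PND14, and at 832 to 1048 CPM at PND35, between the PND14 series. The others were miR-20a-5p, given above, and miR-466a-5p, at 0.517 to 4 CPM. What the name series stand for in the laboratory is not given in the sources used here.

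**Figure D5:**
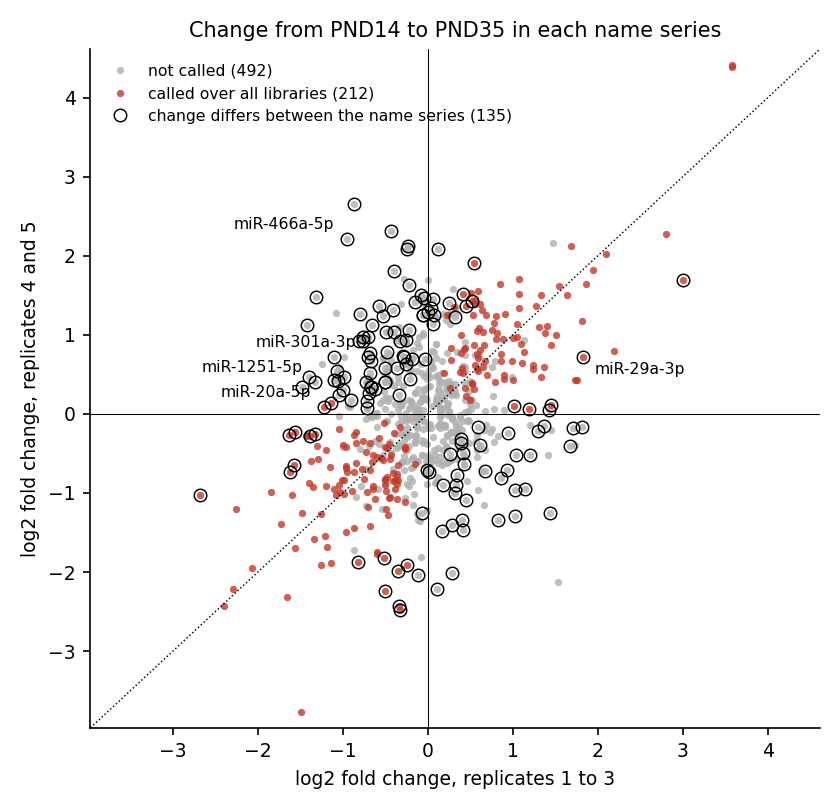
Log2 fold change from PND14 to PND35 in replicates 4 and 5 (vertical axis) against that in replicates 1 to 3 (horizontal axis) for 704 miRNAs, with the 212 called over all libraries in red, the others in grey, and a black ring around the 135 whose change differs between the name series. The dotted line marks equal change. Red points lie mostly in the quadrants of equal sign, and ringed grey points in those of opposite sign, which the way each set was chosen favours in itself.

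Base composition moved with the result. The median GC content of the mature sequence was 43.7% for the 84 miRNAs with a RefSeq sequence that rose, 54.5% for the 108 that fell and 47.8% for the 400 not called. Across these 592 miRNAs, which share the same libraries and are not independent replicates, Pearson's r of GC content with the log2 fold change was −0.27 and Spearman's rho −0.24. It was −0.07 and −0.04 in replicates 1 to 3, and −0.43 and −0.43 in replicates 4 and 5. With the trend of the counts with GC removed, 195 of the 592 were called, and 164 of the 192 called before remained. Whether GC content had a part in the measured changes beyond this was not tested.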

How the data were processed

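Small RNA of the hypothalamus was counted per mature miRNA in 5 libraries each from PND14, PND35 and PND56, and the authors deposited 1 table of counts, not normalized. The columns headed by a bare number, recorded among other values for that reason alone, hold whole-number counts deposited by the authors like the rest. Per the labels' protocols, the mirVana kit served for RNA isolation and the QIAseq miRNA kit for the libraries. Trim Galore, Bowtie, DESeq2 and mm10 are named per the submitters' processing notes. Whether molecular identifiers were used, and how reads of several hairpins or of both strands were assigned, is not given in the sources used here.

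Of 1842 miRNAs, 169 had no count, and edgeR's filterByExpr by age (minimum count 10, minimum total 15) kept 704. The age and name series terms were fitted over all 15 libraries with edgeR 4.0.16 (TMM, quasi-likelihood, 11 residual degrees of freedom; R 4.3.3), and the contrast PND35 minus PND14 was adjusted by Benjamini-Hochberg. The SE was derived from the F statistic (absolute log2 fold change over root F). Counts of miRNAs with 1 seed (RefSeq sequences for 1556 of the 1842, holding 94.4% to 96.4% of the counts of a library) were summed and fitted likewise, with TMM factors computed over the seed families. The log2 ratio of arms was fitted with limma 3.58.1. Summed levels of a list are over all its counted members, tested or not. The difference of the change between name series came from an edgeR model with 1 mean per age and series. Hairpin positions are those of RefSeq GRCm38.p6 and hosts those of GENCODE M21, both mm10. The scripts were tested on simulated data.

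Libraries of 1 age differed beyond sampling noise (smallest chi-square per degree of freedom 20.0), so none was merged. Same-numbered libraries of PND14 and PND35 deviated together from their age means, with correlations of 0.36, 0.59, 0.13, 0.29 and 0.39. Within a name series these were 0.43, 0.39, 0.02, −0.01 and −0.01. Results whose call the replicate block changed are given with it.

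Named were, among called miRNAs whose higher age mean reached 10 CPM and whose direction was equal in both series, the 10 largest rises and falls; the 3 smallest p-values of each of 16 lists; the 8 seed families of at least 2 tested members and 6 hairpins with the smallest p-values, with their members; the 5 largest series differences by p-value; and the 5 most abundant miRNAs. Others named, including the X-linked miR-322 and the miR-23, miR-27, miR-24 and miR-3074 groups, were chosen after their values were seen. The members and lists were chosen with earlier results of these data known. Alternatives were DESeq2 1.42.0, limma-voom, other scalings and filters, no series term, the replicate block, each series alone, the 10 libraries alone, each library left out, and, added after seeing the data, removal of the GC trend.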

Additional observations from a re-analysis of the deposited data

Results flagged for a closer look

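In 4 of 244 groups of 5 libraries examined, the lowest or highest library stood apart from the others by Dixon's criterion for 5 samples (a gap above 0.71 of the range), which chance alone gives in about 1 of 20 groups. miR-9-5p stood at 140874 CPM in PND14 replicate 3, against 123188 to 126856 CPM in the other PND14 libraries, on the side away from PND35. miR-30b-5p stood at 907 CPM in PND35 replicate 2 and at 658 to 708 CPM in the other PND35 libraries, and it was not called between the ages. miR-770-3p stood at 482 CPM in PND35 replicate 2, below the 702 to 776 CPM of the others. miR-18b-5p stood at 0.124 CPM in PND35 replicate 1, below the detection floor of 3 counts there (0.389 CPM), against 0.5 to 0.653 CPM in the others.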

How the results depend on the processing

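The count of 212 changed miRNAs was 164 to 244 under other scalings, filters and tools, with the PND14 and PND35 libraries alone, in replicates 1 to 3 alone (196) and with the replicate block (181, of which 180 were among the 212). Without the name series term it was 135, and in replicates 4 and 5 alone 356; that of 164 seed families was then 94 and 254. The 39 hairpins became 13 without the series term and 32 with the block. With each library left out, 167 (without PND14 replicate 1) to 227 miRNAs, 117 (without PND35 replicate 2) to 178 seed families, 25 (without PND14 replicate 4) to 53 hairpins and 21 to 188 series differences were called. Of 115 named results that were called, 67 kept their call in all alternatives run for them and 48 lost it in at least 1. On the log2 scale the direction was reversed in replicates 4 and 5 alone for miR-485-5p (−0.53), miR-370-5p (−0.25), miR-702-3p (−0.54), miR-1251-5p (0.38), miR-20a-5p (0.062), miR-301a-3p (0.70) and miR-301b-3p (0.11), and in replicates 1 to 3 alone for miR-323-5p (0.20) and miR-7b-5p (0.018). It was also reversed for miR-323-5p with the GC trend removed (0.40, and 0.41 with the replicate block) and for miR-370-5p without PND14 replicate 2 (−0.10), PND35 replicate 3 (−0.05) or PND35 replicate 5 (−0.000927), with a range up to 0.178 without PND14 replicate 4. The cause was not tested. Depth limits miRNAs near the floor, such as miR-702-5p and miR-18b-5p.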
